A study of Drosophila melanogaster with 15 samples.

Results

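The respiratory chain of mitochondria is built from complexes I to IV, which pass electrons from NADH and succinate to oxygen while pumping protons, and the ATP synthase, which uses the proton gradient to make ATP. Most of its subunits are encoded in the nucleus and imported into mitochondria, and a small core is encoded by the mitochondrial genome. Neurons depend on this chain for much of their ATP. Here the nuclear-encoded subunit genes were followed in nuclear RNA from mushroom body (MB) neurons of Drosophila melanogaster. The genes were chosen by symbol: those that begin with ND- (complex I), SdhA, SdhB, SdhC or SdhD (complex II), UQCR- (complex III), COX and a digit (complex IV) or ATPsyn (ATP synthase). This gave 87 of the 17560 features in the count tables, namely 40 of complex I, 7 of complex II, 9 of complex III, 16 of complex IV and 15 of the ATP synthase. No measured value was used to choose them. Of the 87 symbols, 24 end in L, L1 or L2 and mark a paralog of another subunit gene, and 63 do not.

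The study asked how knockdown of trx, which encodes the histone methyltransferase Trithorax, alters gene expression in MB neurons of naïve and trained flies. All 15 libraries came from adult flies that carried the MB driver R14H06-Gal4, UAS-Dicer2 and the nuclear envelope tag UAS-unc84::GFP, and tagged nuclei were pulled from pools of 50 to 60 fly heads with anti-GFP beads. Both genotypes were in a w* background, and only trx-KD flies carried the RNAi insertion P{GD4502}v37715. The knockdown is thus limited to cells in which the driver is active. There were 4 naïve control, 4 trained control, 3 naïve trx-KD and 4 trained trx-KD libraries. The labels used here give no age, sex, training protocol or time after training, and do not say whether the pools came from separate crosses, so the spread between libraries may be partly technical.

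Depth ranged from 14154045 to 45976562 reads counted on genes per library (median 24250938). The targeted gene trx had a normalised read count (CPM, scaled by TMM) of 561 to 609 in the 8 control and 499 to 550 in the 7 trx-KD libraries, without overlap. Its log2 fold change was -0.11 in naïve flies (edgeR adjusted p = 0.304) and -0.15 in trained flies (edgeR adjusted p = 0.0744). All 10 MB neuron markers were detected in every library, with a summed level of 10000 to 14410 CPM. Markers of other head cells were present too: those of photoreceptors summed to 6792 to 14550 CPM, of fat body to 2700 to 6410 CPM, of muscle to 1514 to 3800 CPM and of glia to 639.6 to 873.5 CPM. The glial genes alrm and moody, the muscle gene TpnC4 and the photoreceptor gene Arr2 were at 0 in all 15 libraries. The pan-neuronal gene elav was at 0.255 CPM at most, while nSyb, Syt1 and brp were detected in every library. Whether reads of alrm, moody, TpnC4, Arr2 and elav could be counted was not tested, so these values do not show absence. In such bulk samples, fewer cells of a type and less RNA per cell cannot be told apart. Transcripts of the mitochondrial genome, which are not nuclear, took 0.368% to 1.02% of counts in controls and 0.241% to 0.732% in trx-KD. Naïve control library 4 stood apart from its group (0.368% against 0.749% to 0.946%), and trained trx-KD libraries 3 and 4 had the lowest shares of all (0.241% and 0.294%). These 3 libraries recur below, and each count of changed genes is also given without them.

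In naïve control flies the respiratory chain was well expressed. Of the 87 genes, 61 reached a mean of 1 CPM, and their median level per length of exon was 68.2 CPM per kb, against a median of 10.02 CPM per kb over the 8428 features that reached 1 CPM. Of the 61, 58 lay above that median and 35 lay within the top 10% of those features. The whole set of 87 accounted for 0.533% to 0.714% of the reads counted in a library.

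The highest gene per length was ATPsynC, which encodes the c subunit of the membrane rotor of the ATP synthase, with 592 ± 28.9 CPM per kb (SD, n = 4). It lies at 3R, 31216145 to 31219630, on the minus strand, and alone took 376222 of the 2104146 counts on the 87 genes. COX7B followed with 446 ± 36.0, COX6B with 388 ± 13.8, ATPsynF with 334 ± 4.90 and COX5A with 295 ± 24.6 CPM per kb (SD, n = 4). COX5B (233 ± 28.3 CPM per kb, SD, n = 4) was next, and these means lay further apart than the SD of either neighbour. COX7B, COX6B, COX5A and COX5B encode nuclear subunits that surround the catalytic core of cytochrome c oxidase, and ATPsynF a small membrane subunit of the ATP synthase. By complex, the median level of the genes at 1 CPM or more was 56.1 CPM per kb in complex I (32 genes), 59.5 in complex II (4 genes), 92.9 in complex III (5 genes), 120.5 in complex IV (9 genes) and 104 in the ATP synthase (11 genes).

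**Figure D1:**
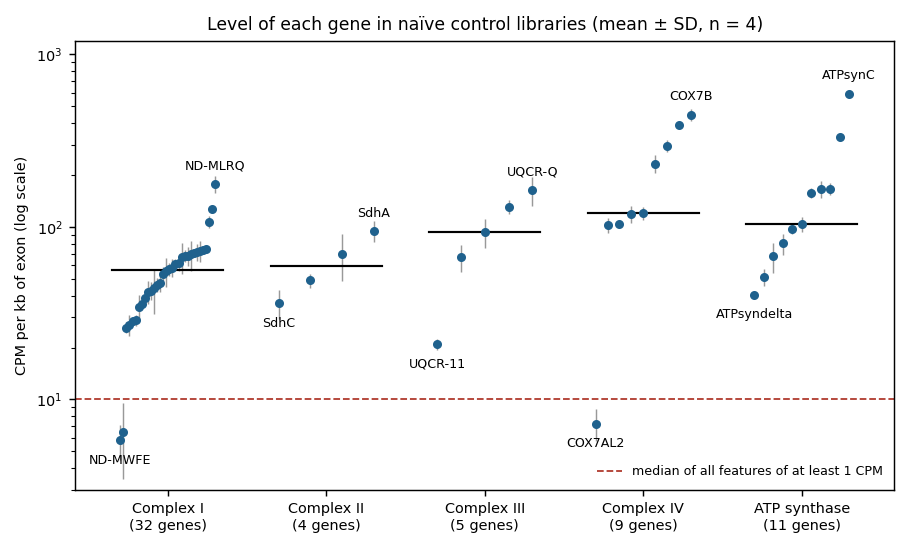
Level of each respiratory chain gene that reached 1 CPM in naïve controls, as CPM per kb of exon on a log axis, by complex (points, mean ± SD of 4 libraries; black lines, median of the complex). ATPsynC is highest at 592 CPM per kb, and all but 3 genes lie above the dashed median of 10.02 CPM per kb over all features of at least 1 CPM.

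The 3 genes below that median were ND-MWFE (5.80 ± 1.36 CPM per kb), ND-AGGG (6.51 ± 3.06) and COX7AL2 (7.24 ± 1.52, all SD, n = 4). ND-MWFE and ND-AGGG encode small accessory subunits of complex I. Of the exon bases of ND-MWFE, 34.9% are shared with exons of another gene. Read counting of such bases matters here. Of 64 protein-coding genes whose exons are wholly covered by exons of the opposite strand (and by none of their own strand), 62 had 0 counts in all 15 libraries, against 1394 of the 9292 protein-coding genes without exon overlap. For full cover on the same strand it was 203 of 208 genes. Bases shared with another exon were thus nearly absent from the counts whichever strand the other gene was on, and the level of an overlapped gene is a lower limit. UQCR-14, which encodes a subunit of complex III, is covered at 100% by an exon of the opposite strand and had 0 counts. ND-MNLL of complex I is covered at 100% on its own strand and also had 0 counts, as had the paralog COX5BL, covered at 100% on the opposite strand. The levels of these 3 genes cannot be read from the tables. ND-B8 of complex I had 18 counts in all libraries together, with 15.4% of its exon bases shared.

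The paralog symbols had few counts. Of the 24, 10 had 0 counts in all 15 libraries, and all 24 together had 2451 counts, of which 1878 fell on COX7AL2. All 10 at 0 overlap the span of another gene, while most paralogs with counts overlap none. Among the 10 only COX5BL shares exon bases, so the check of exon overlap above does not cover the others. Whether reads of these 10 could be counted was not tested. Where reads of a gene can be counted, 0 over the 345537353 counts of all libraries allows a level of up to 0.00868 CPM. That limit covers counting error only, and was not shown to hold for these 10 genes. In 19 of 20 pairs in which the parent gene was also among the 87, the parent had more counts than the paralog. SdhA, the flavoprotein that oxidises succinate, had 83367 counts and SdhAL had 0. ND-49, a core subunit of complex I, had 37172 counts and ND-49L had 0. ATPsynbeta, the catalytic subunit, had 129293 counts and ATPsynbetaL had 25. The exception was UQCR-14L with 5 counts, whose parent UQCR-14 was not countable. Only COX7AL2 passed the filter on low counts in every fit. COX7CL (206 counts), COX4L (113) and SdhBL (76) passed it in some. The other 20 paralogs and UQCR-14, ND-MNLL and ND-B8 entered no fit: ATPsynCF6L, ATPsynGL, ATPsynbetaL, ATPsynepsilonL, COX5BL, COX6AL, COX6AL2, COX6CL, COX7AL, ND-20L, ND-24L, ND-49L, ND-51L1, ND-51L2, ND-B14.5AL, SdhAL, SdhCL, UQCR-11L, UQCR-14L and UQCR-6.4L. Thus 64 of the 87 genes were tested in at least 1 comparison.

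Across the 15 libraries the summed level of the 87 genes moved little. The naïve controls lay at 6278 to 6840 CPM (6591 ± 275, SD, n = 4) and the trained controls at 5622 to 6581 CPM (6112 ± 392, n = 4). The naïve trx-KD libraries lay at 5542 to 6200 CPM (5804 ± 349, n = 3) and the trained trx-KD libraries at 5400 to 6631 CPM (5984 ± 539, n = 4). The naïve control libraries were all higher than the naïve trx-KD libraries, and all other pairs of groups overlapped. Complex IV genes summed to 1257 to 1333 CPM in the naïve controls, to 1059 to 1209 CPM after training, and to 960.3 to 1102 CPM in naïve trx-KD, so the naïve controls lay above all 11 other libraries. Trained trx-KD libraries lay at 978.5 to 1216 CPM for complex IV and overlapped all groups but the naïve controls.

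**Figure D2:**
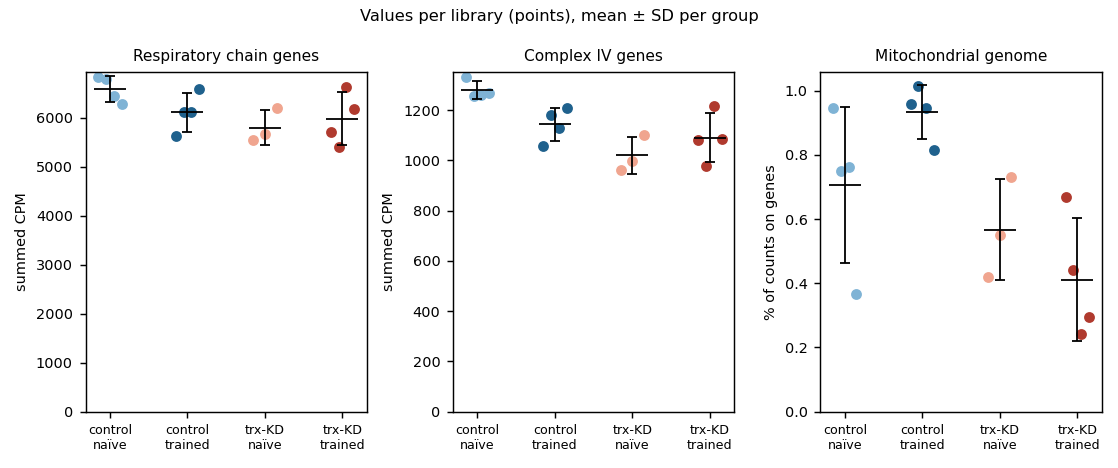
Summed CPM of the 87 respiratory chain genes (left) and of the 16 complex IV genes (middle), and share of counts on the mitochondrial genome (right), per library (points) with the mean ± SD of each group. Naïve controls are the highest group in both sums, while the mitochondrial share is lowest in trained trx-KD and 1 naïve control library lies at 0.368%.

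The comparison of trained with naïve control flies asks what training does in the control genotype. Nearly all respiratory chain genes had a slightly lower estimate after training, but few differences passed the test. Of 61 genes tested, 59 had an estimate below 0 (49.0% of all 9255 genes tested did), the median log2 fold change was -0.13 (0.00 over all genes), and 4 genes fell at an adjusted p under 0.1 while none rose (1.03% of all genes did). Over all genes tested, 4.38% were called in either direction and 3.35% lower. Adjusted p-values are those of the quasi-likelihood test in edgeR, corrected by Benjamini-Hochberg across the whole table of tested genes, here and below. At an unadjusted p under 0.05, 21 of the 61 genes passed (13.5% of all genes did). Every trained library lay below every naïve library for 8 of the 61 genes (5.06% of all genes), and none showed the opposite (4.85% of all genes).

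The 4 genes that fell were ATPsynCF6, ATPsynG, ND-20 and ND-B16.6. ATPsynCF6 (3R, 23355220 to 23356064, minus strand) encodes coupling factor 6, a part of the peripheral stalk of the ATP synthase. It was at 116, 117, 106 and 129 CPM in the naïve and 80.3, 93.6, 91.5 and 103 CPM in the trained control libraries. The 2 groups did not overlap, and the log2 fold change was -0.36 ± 0.08 (SE, edgeR adjusted p = 0.0402). ATPsynG (2L, 10975522 to 10976399, minus strand) encodes subunit g in the membrane part of the same enzyme. It was at 89.1, 75.5, 75.0 and 89.6 CPM in the naïve and 54.7, 74.7, 59.8 and 67.9 CPM in the trained libraries, a log2 fold change of -0.37 ± 0.10 (SE, edgeR adjusted p = 0.0831). Its groups were separated by only the gap between 74.7 and 75.0 CPM.

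ND-20, the complex I subunit that carries the last iron-sulfur cluster before ubiquinone, was at 54.0, 54.8, 53.1 and 66.9 CPM in naïve and 41.5, 44.4, 49.7 and 47.1 CPM in trained controls. ND-B16.6, an accessory subunit, was at 74.2, 68.0, 66.4 and 79.0 CPM in naïve and 60.0, 62.1, 58.8 and 63.3 CPM in trained controls. Both were lower in every trained library, with log2 fold changes of -0.34 ± 0.09 and -0.25 ± 0.07 (SE, edgeR adjusted p = 0.0744 and 0.0802). Of the exon bases of ND-B16.6, 17.5% are shared with a gene on the opposite strand. ATPsynbeta, ND-75, SdhA and UQCR-C2 did not pass the test, with log2 fold changes of -0.13 ± 0.07, -0.04 ± 0.09, -0.02 ± 0.11 and 0.00 ± 0.12 (SE). The 4 calls leaned on single libraries. The count was 1 when any 1 of the 4 trained control libraries, or naïve control library 1 or 2, was left out, and 5 without naïve control library 3. It was 10 without naïve control library 4, all of them lower. Calls among all genes moved in the same fits, with 230 to 291 of 9353 to 9384 genes called in the 6 fits that gave 1, 387 of 9345 in the fit that gave 5 and 711 of 9334 in the fit that gave 10. ATPsynCF6 was lost without trained control library 2 or 3, ATPsynG without trained control library 1, 3 or 4 or naïve control library 1, 2 or 4, ND-20 without trained control library 1, 2 or 4 or naïve control library 1 or 2, and ND-B16.6 without any trained control library or naïve control library 1 or 2.

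Summed marker levels moved with this comparison as well. Fat body markers (6 of 6 detected) summed to 4497 to 6410 CPM in naïve and 3305 to 3534 CPM in trained controls, without overlap, and 2 of 4 tested (Lsp2 and apolpp) fell. Detected in these lists means a count in at least 1 library, and Fbp1 stayed at 0.92 CPM at most. Markers of transmitter types outside Kenyon cells summed to 687.9 to 823.3 CPM in naïve and 839.6 to 902.9 CPM in trained controls, also without overlap, and 1 of 3 (Gad1) rose. Photoreceptor markers (9 of 10 detected, Arr2 at 0) summed to 8546 to 14550 and 7817 to 9914 CPM, and 1 of 9 fell. All 9 photoreceptor estimates were below 0, with a median of -0.31, and 5 passed an unadjusted edgeR p under 0.05. MB markers summed to 10000 to 12030 and 10790 to 12160 CPM, with 9 of 10 estimates above 0. Muscle markers, of which 4 of 5 were detected, summed to 1878 to 3800 and 1789 to 3674 CPM. The part of these levels in the lower respiratory chain estimates was not tested.

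In trx-KD flies no respiratory chain gene passed the test between trained and naïve libraries. The median log2 fold change over the 62 genes tested was 0.02 (-0.01 over all 9370 genes tested), with 33 estimates above 0 and 29 below (51.1% of all genes were below). edgeR called 0 of the 62 genes (0.534% of all genes tested, 0.342% higher and 0.192% lower). At an unadjusted p under 0.05, 7 of the 62 passed (12.0% of all genes did). DESeq2 called 1 of the 62 and 244 of all 9370 genes. For none of the 62 was every trained library below every naïve library (5.22% of all genes) or above (6.79%). The gene called by DESeq2 was COX8, which encodes a small subunit of cytochrome c oxidase, with a log2 fold change of 0.54 ± 0.17 (SE, DESeq2 adjusted p = 0.0569). COX8 was at 36.5, 39.2 and 42.8 CPM in naïve and 49.3, 42.8, 70.9 and 65.1 CPM in trained trx-KD libraries. Trained library 2 was level with the highest naïve library. Without trained library 2, edgeR also called COX8 and no other respiratory chain gene, among 160 called of all 9313 genes. COX8 stands outside the rule for named genes and was chosen after its values were seen.

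The trained trx-KD libraries differed among themselves. COX5B (2L, 6557800 to 6559308, plus strand) was at 133, 119, 257 and 176 CPM in trained libraries 1 to 4, against 130, 109 and 124 CPM in the naïve libraries. ATPsynCF6 was at 96.5, 97.8, 165 and 141 CPM against 98.5, 97.4 and 111 CPM. Trained libraries 3 and 4 were above all naïve libraries for both genes, and trained libraries 1 and 2 lay within or near the naïve range. For SdhB, the iron-sulfur subunit of complex II, the order turned: trained libraries 3 and 4 were lowest at 50.0 and 50.1 CPM, against 64.2 and 58.6 CPM in libraries 1 and 2 and 61.2, 73.8 and 76.7 CPM in the naïve libraries. When the 3 libraries of lowest mitochondrial share were left out, the median of 63 genes tested was -0.07 and 0 genes were called. Over all 9436 genes tested in that fit, the median was -0.0006 and 18 were called.

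The comparison of trx-KD with control in naïve flies sets the 2 genotypes side by side without training. Only trx-KD flies carried the RNAi insertion, so effects of the insertion itself and of less trx cannot be told apart. Here respiratory chain genes were lower in trx-KD, and complex IV was the part with the most calls. The 4 naïve control libraries are those of the control training comparison, so the 2 results are not independent. Of 62 genes tested, 16 fell at an edgeR adjusted p under 0.1 (7.88% of all 9419 genes tested fell and 14.2% were called in either direction), and none rose (6.27% of all genes did). The median log2 fold change was -0.18 (-0.02 over all genes) and 55 of 62 estimates were below 0 (53.7% of all genes). At an unadjusted p under 0.05, 23 of 62 genes passed (24.0% of all genes did). For 19 of the 62 genes the trx-KD libraries all lay below the controls (11.3% of all genes), and no gene showed the opposite (11.7% of all genes). By complex, 6 of 10 genes of complex IV fell (median -0.34), 4 of 32 of complex I (median -0.13), 1 of 4 of complex II, 2 of 5 of complex III and 3 of 11 of the ATP synthase (median -0.15).

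In complex IV, COX6B (X, 19740537 to 19744335, minus strand), which encodes the subunit that faces the intermembrane space, was at 317, 294, 314 and 301 CPM in control and 195, 212 and 254 CPM in trx-KD. The log2 fold change was -0.47 ± 0.09 (SE, edgeR adjusted p = 0.0104). COX5B, a subunit on the matrix side, was at 169, 161, 150.5 and 199 CPM in control and 130, 109 and 124 CPM in trx-KD (-0.49 ± 0.10, edgeR adjusted p = 0.0169). COX7B fell from 207, 173, 184 and 180 CPM to 133, 137 and 150.5 CPM (-0.40 ± 0.08, edgeR adjusted p = 0.0123). In all of these genes the lowest control library was above the highest trx-KD library. COX7C and COX8 fell as well, by 0.28 and 0.41 on the log2 scale. The paralog COX7AL2 was at 5.42 to 8.75 CPM in control and 2.86 to 4.95 CPM in trx-KD (-0.73 ± 0.21, edgeR adjusted p = 0.0588). COX4 and COX5A, further nuclear subunits of the enzyme, had log2 fold changes of -0.16 ± 0.09 and -0.14 ± 0.08 and did not pass the test.

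In the other complexes, ND-B18 (X, 15063733 to 15064926, plus strand), an accessory subunit of complex I, was at 72.2, 63.9, 67.4 and 73.6 CPM in control and 47.0, 44.7 and 51.0 CPM in trx-KD. Its log2 fold change of -0.54 ± 0.08 had the lowest edgeR adjusted p of the 62 genes (0.00488). ATPsynG fell to 54.3, 46.2 and 60.9 CPM from the control values given above (-0.61 ± 0.11, edgeR adjusted p = 0.00908). UQCR-11, a small subunit of complex III, fell from 35.1, 33.1, 30.5 and 36.3 CPM to 28.2, 23.0 and 21.9 CPM (-0.46 ± 0.11, edgeR adjusted p = 0.0251). UQCR-Q (3L, 17474761 to 17476124, plus strand), a small subunit of complex III, was at 189, 170, 161 and 117 CPM in control and 101, 97.4 and 124 CPM in trx-KD. Control library 4 lay within the trx-KD range, and the log2 fold change was -0.56 ± 0.14 (SE, edgeR adjusted p = 0.0343). The catalytic subunit gene ATPsynbeta (0.03 ± 0.07), the c-ring gene ATPsynC (-0.08 ± 0.07) and the complex I core genes ND-75, ND-51 and ND-49 (-0.11, -0.05 and -0.14) did not pass the test.

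ND-B18, ATPsynG, COX6B and COX7B kept their call in each of the 7 fits that left out 1 library. COX5B lost it without trx-KD library 2, ATPsynF and UQCR-Q without trx-KD library 1 or 2, and UQCR-11 without trx-KD library 2 or 3. COX7AL2 and COX7C each lost it in 4 of 7 fits, and ND-24 and SdhC in 6 of 7, all but the fit without control library 4. The count of genes that fell was 10 without control library 1, 36 without control library 4, 7 without trx-KD library 1 and 4 without trx-KD library 2. Calls among all genes in these 4 fits were 664 of 9381, 2558 of 9326, 500 of 9614 and 330 of 9616, in the same order. Beside this result, the muscle markers (4 of 5 detected, TpnC4 at 0) summed to 1878 to 3800 CPM in naïve control and 2015 to 2521 CPM in naïve trx-KD, and 3 of the 4 tested fell. The fat body markers (6 of 6 detected) summed to 4497 to 6410 and 3623 to 3864 CPM, and 1 of 5 tested fell. Of glial and hemocyte markers, 1 of 4 and 1 of 2 tested fell. Photoreceptor markers summed to 8546 to 14550 and 6792 to 12410 CPM. None of the 9 tested was called, but all 9 estimates were below 0, with a median of -0.19. MB markers summed to 10000 to 12030 and 11420 to 12190 CPM, and 2 of the 10, the dopamine receptor genes Dop1R1 and Dop1R2, rose. Of 3 markers of transmitter types outside Kenyon cells, with sums of 687.9 to 823.3 and 787.0 to 865.4 CPM, Gad1 rose and ple fell. The part of these shifts in the respiratory chain result was not tested.

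After training, the same comparison of trx-KD with control gave calls in both directions. Of 62 genes tested, 11 fell and 3 rose at an edgeR adjusted p under 0.1 (6.78% of all 9237 genes tested fell, 7.12% rose, and 13.9% were called in all). The median log2 fold change was -0.01 (-0.03 over all genes), with 29 estimates above 0 and 33 below. At an unadjusted p under 0.05, 23 of the 62 genes passed (25.8% of all genes did). The trx-KD libraries all lay below the controls for 12 genes (8.51% of all genes), and all above for ND-MLRQ alone (9.32% of all genes). By complex, 2 of 4 genes of complex II fell, 6 of 32 of complex I fell and 2 rose, 1 of 5 of complex III fell and 1 rose, and 1 of 10 of complex IV and 1 of 11 of the ATP synthase fell.

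Complex II, which links the tricarboxylic acid (TCA) cycle to the chain, held the largest fall. SdhB (2R, 6807626 to 6809172, plus strand) was at 78.5, 89.3, 87.3 and 91.7 CPM in control and 64.2, 58.6, 50.0 and 50.1 CPM in trx-KD, a log2 fold change of -0.64 ± 0.09 (SE, edgeR adjusted p = 0.00521). SdhC, a membrane anchor of the complex, was at 27.4, 32.1, 28.1 and 33.0 CPM in control and 21.2, 23.0, 19.4 and 23.6 CPM in trx-KD (-0.47 ± 0.10, edgeR adjusted p = 0.0201). SdhA had a log2 fold change of -0.19 ± 0.10 and its groups overlapped. In complex I, ND-18 (X, 19492421 to 19493337, plus strand), whose mammalian form is needed for full assembly of the complex, was at 33.6, 31.2, 30.7 and 32.2 CPM in control and 24.8, 24.2, 17.5 and 20.4 CPM in trx-KD (-0.56 ± 0.11, edgeR adjusted p = 0.0178). COX6B was at 270.2, 280.2, 288 and 279 CPM in control and 249, 216, 172 and 164 CPM in trx-KD (-0.48 ± 0.11, edgeR adjusted p = 0.031). None of these 4 pairs of groups overlapped, and each gene kept its call in all 8 fits that left out 1 library.

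Smaller falls were called for UQCR-C1 (-0.26 ± 0.06), a core protein of complex III, for ND-75 (-0.22 ± 0.06), the largest iron-sulfur subunit of complex I, and for ND-B15 (-0.28 ± 0.09) and ND-B18 (-0.26 ± 0.08), both accessory subunits (SE, edgeR adjusted p = 0.0307, 0.0487, 0.0871 and 0.0595). The 3 genes that rose were UQCR-6.4, ND-MLRQ and ND-ASHI. UQCR-6.4, a small subunit of complex III, was at 26.4, 30.4, 33.9 and 30.0 CPM in control and 37.5, 32.1, 60.3 and 44.9 CPM in trx-KD (0.53 ± 0.17, edgeR adjusted p = 0.0788), and 40.5% of its exon bases are shared with a gene on the opposite strand. ND-MLRQ, assigned to complex I by its name and to cytochrome c oxidase in mammals, was at 77.0, 84.1, 87.5 and 88.6 CPM in control and 98.5, 95.3, 163 and 114 CPM in trx-KD (0.48 ± 0.15, edgeR adjusted p = 0.0727). ND-ASHI had a log2 fold change of 0.28 ± 0.09 (edgeR adjusted p = 0.0854). In all 3 genes trx-KD library 3 was the highest of the 8 libraries.

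**Figure D3:**
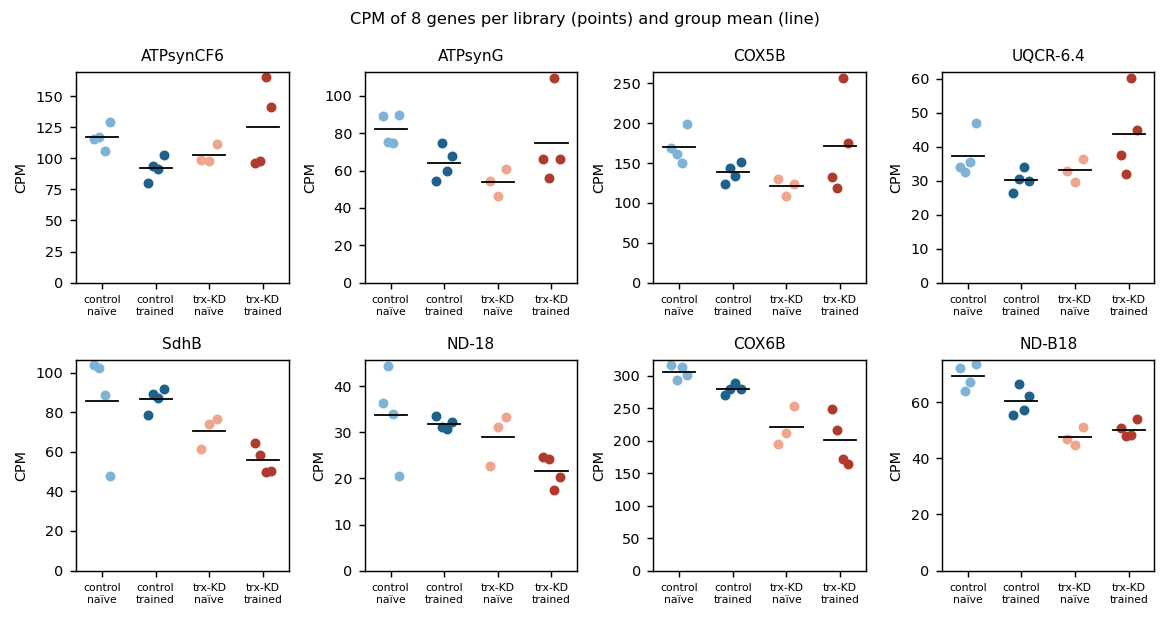
CPM of 8 respiratory chain genes in each library (points) with the group mean (line), chosen after their values were seen. In the upper row trained trx-KD library 3 is the highest of the 15 libraries, with 257 CPM for COX5B, while for SdhB and ND-18 naïve control library 4 falls to 47.7 and 20.6 CPM, far below the other naïve controls.

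Without the 3 libraries of lowest mitochondrial share, which leaves 2 trained trx-KD libraries against 4 controls, 7 genes fell and none rose. Over all genes tested in that fit, 543 of 9457 were called. The median was -0.12 (-0.01 over all genes). Of those 7, 5 were among the 14 called with all libraries, SdhB, SdhC, ND-18 and COX6B included. UQCR-6.4, ND-MLRQ and ND-ASHI were no longer called. Among fits that left out 1 library, the count of calls was 6, 5 and 4 without control library 2, 3 or 4, 6 without trx-KD library 4 and 22 without trx-KD library 2. Calls among all genes in these 5 fits were 503 of 9315, 672 of 9312, 495 of 9319, 574 of 9326 and 1808 of 9331, in the same order. UQCR-6.4, ND-ASHI and ND-B15 lost their call without any control library or trx-KD library 3 or 4, and ND-MLRQ without any control library or trx-KD library 4. UQCR-C1 lost its call without control library 4, ND-75 without control library 2, 3 or 4 or trx-KD library 4, ND-B18 without control library 2, 3 or 4 or trx-KD library 3, and ND-24 in every such fit but that without trx-KD library 2.

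Beside this result, MB markers (10 of 10 detected) summed to 10790 to 12160 CPM in trained control and 12800 to 14410 CPM in trained trx-KD, and 5 of the 10 rose. Muscle markers (4 of 5 detected) summed to 1789 to 3674 and 1514 to 2780 CPM, with 2 of 4 falling, and fat body markers (6 of 6 detected) to 3305 to 3534 and 2700 to 4366 CPM, with 2 of 5 rising. The fat body genes Yp1, Yp2 and Yp3 had means of 35.7, 28.3 and 29.2 CPM in trained trx-KD. Their highest library was at 141.6, 110.5 and 102.6 CPM, so these means rest largely on 1 library. All 3 pan-neuronal markers tested and 1 of 2 hemocyte markers rose, and 1 of 9 photoreceptor markers fell. The part of these shifts was not tested.

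Of the 16 genes that fell in naïve trx-KD flies and the 11 that fell in trained trx-KD flies, 5 were in both lists (31.2% and 45.5%). Over all genes tested, 742 and 626 fell, but how many of those were in both lists was not counted. The overlap is thus not shown to be particular to the respiratory chain. The 5 genes were COX6B, ND-B18, SdhC, ND-24 and ND-PDSW. ND-24 is a core complex I subunit with an iron-sulfur cluster and ND-PDSW an accessory subunit, named here outside the rule for named genes. The 2 comparisons share no library. SdhB and ND-18, the leading genes of the trained comparison, had log2 fold changes of -0.27 ± 0.21 and -0.21 ± 0.21 in naïve flies. There, naïve control library 4 was at 47.7 CPM for SdhB and 20.6 CPM for ND-18, against 88.4 to 104 and 34.0 to 44.4 CPM in the other 3 controls. COX5B and COX8, which fell in naïve flies, had log2 fold changes of 0.31 ± 0.20 and 0.30 ± 0.14 in trained flies.

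**Figure D4:**
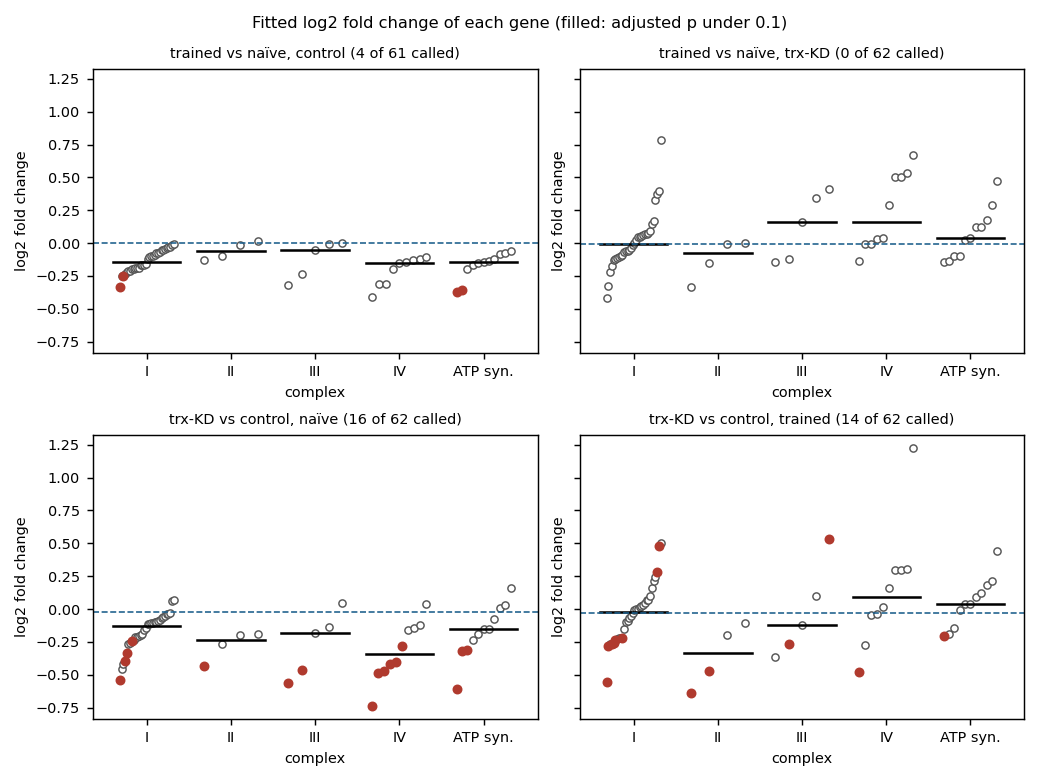
Fitted log2 fold change of each respiratory chain gene by complex in the 4 comparisons of 2 groups (filled points, edgeR adjusted p under 0.1; black lines, median of the complex; dashed line, median of all genes tested). The points shift below the dashed line in control training and in naïve trx-KD, 2 comparisons that share the 4 naïve control libraries. In trained trx-KD they spread to both sides.

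Whether training acts differently in the 2 genotypes was tested by the interaction of training and genotype over all 15 libraries. These include the naïve controls that also serve in control training and in naïve trx-KD against control. edgeR called 0 of the 64 respiratory chain genes and 0 of all 9749 genes tested (0%). DESeq2 called 24 of all genes, and among the 64 only COX8 (0.73 ± 0.20, SE, DESeq2 adjusted p = 0.0964). At an unadjusted p under 0.05, 13 of the 64 genes passed (10.8% of all genes did), all with an estimate above 0, that is, a higher change with training in trx-KD than in control. The median was 0.12 (-0.01 over all genes) and 47 of 64 estimates were above 0 (52.0% of all genes were below). The largest of the 13 were ATPsynG (0.83 ± 0.24), COX5B (0.80 ± 0.25), COX8 (0.72 ± 0.19), UQCR-6.4 (0.72 ± 0.24) and ATPsynCF6 (0.64 ± 0.20, SE), each with an edgeR adjusted p of 0.363. Without trained trx-KD library 2, edgeR called 7 of the genes and 189 of all genes. The 7 were COX8, ND-B16.6, ATPsynG, COX5B, UQCR-6.4, COX7C and ATPsynCF6. Without the 3 libraries of lowest mitochondrial share it called 0 again (0 of all 9765 genes). In that fit 7 respiratory chain genes were at an unadjusted p under 0.05, and their median was 0.06 over those tested (-0.0007 over all genes).

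The genes varied across libraries in more than 1 way. Over the 61 genes tested in all 4 comparisons of 2 groups, the coefficient of variation over the 15 libraries was 5.92% to 42.6%, with a median of 12.2%. It was highest in ND-MWFE (42.6%), COX7AL2 (36.6%), ND-AGGG (30.7%), UQCR-Q (26.8%), SdhB (25.1%), ND-18 (24.9%) and COX5B (24.8%). COX5B and SdhB moved apart in the libraries of low mitochondrial share. The log2 ratio of COX5B to SdhB was 2.36 and 1.81 in trained trx-KD libraries 3 and 4 and 2.06 in naïve control library 4, and 0.559 to 1.08 in the other 12 libraries. The share of ribosomal RNA was low in the same 3 libraries, at 0.086%, 0.134% and 0.144%, against 0.215% to 0.716% in the other 12. This pair of genes was chosen after their values were seen. The part of these shares in the result was not tested.

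UQCR-Q was set beside the muscle markers, a pair chosen after its values were seen. In the 4 trained controls it was at 102, 155, 157 and 203 CPM while the muscle markers summed to 1789, 2846, 3056 and 3674 CPM. In naïve control library 4 both were low, with 117 CPM for UQCR-Q and 1878 CPM for the markers, against 161 to 189 CPM and 2897 to 3800 CPM in the other 3 naïve controls. The naïve trx-KD libraries were at 101, 97.4 and 124 CPM for UQCR-Q with markers at 2438, 2015 and 2521 CPM. In the 4 trained trx-KD libraries UQCR-Q was at 100, 87.4, 166 and 126 CPM with markers at 1514, 1804, 2780 and 2693 CPM, and library 2 had a higher marker sum but a lower UQCR-Q level than library 1. The muscle markers' part in the fall of UQCR-Q in naïve trx-KD flies was not tested.

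**Figure D5:**
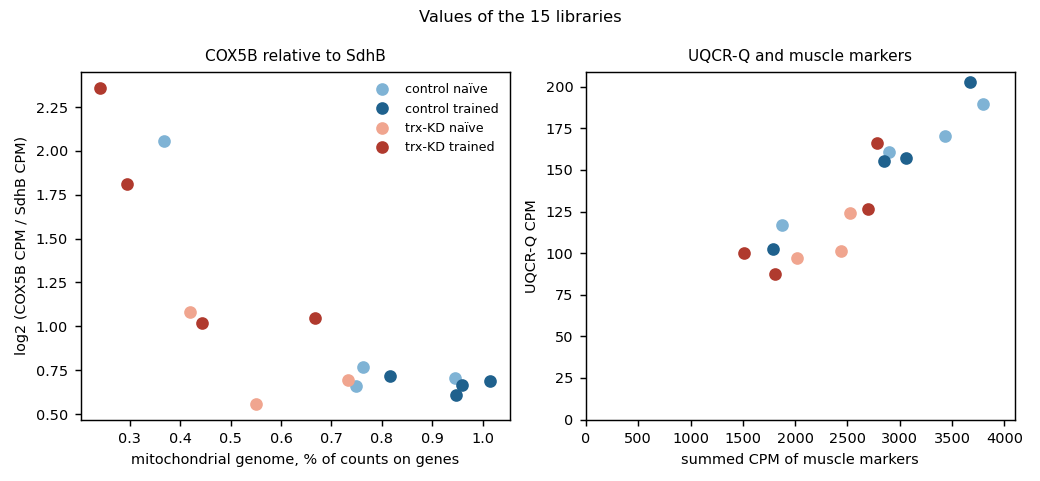
Log2 ratio of COX5B to SdhB against the share of counts on the mitochondrial genome (left), and UQCR-Q against the summed CPM of muscle markers (right), 1 point per library coloured by group. The 3 libraries under 0.4% mitochondrial share have ratios of 1.81 to 2.36 against at most 1.08 elsewhere, and UQCR-Q ranges from 87.4 to 203 CPM.

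Exon length, which the choice of genes did not use, went with the fold changes in some comparisons more than in others. The 61 genes were divided at their median into 31 short genes (417 to 888 bases of exon) and 30 long genes (894 to 3817 bases). In control training the median log2 fold change was -0.15 in the short and -0.10 in the long genes. In naïve trx-KD against control it was -0.19 in the short and -0.17 in the long genes. In trained trx-KD against control it was 0.03 in the short and -0.13 in the long genes, with 19 of 31 and 9 of 30 estimates above 0. Spearman's rho between exon length and log2 fold change over the 61 genes was 0.31 in control training, -0.27 in trx-KD training, 0.11 in naïve trx-KD against control, -0.26 in trained trx-KD against control and -0.31 for the interaction. Over other genes of up to the same length it was 0.13, -0.09, 0.18, -0.01 and -0.14. These are descriptions across genes that share the same libraries, and genes are not independent replicates.

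Related gene lists were read beside the chain. Of 9 further structural subunits with symbols of another kind, 8 matched and 7 were tested. In control training levy (a cytochrome c oxidase subunit, -0.33 ± 0.06) and Cyt-c1 (cytochrome c1 of complex III, -0.26 ± 0.07) fell, and none of the 7 rose (SE, edgeR adjusted p = 0.00739 and 0.0798). In naïve trx-KD flies 4 of the 7 fell: ox (a small complex III subunit, -0.60 ± 0.10), cype (a cytochrome c oxidase subunit, -0.52 ± 0.07), sun (the epsilon subunit of the ATP synthase, -0.33 ± 0.10) and Cyt-c1 (-0.32 ± 0.06). In trained trx-KD flies RFeSP, the Rieske iron-sulfur protein of complex III, fell (-0.35 ± 0.07, edgeR adjusted p = 0.0169). Among 12 tested genes of the TCA cycle and pyruvate dehydrogenase, 3 fell in naïve trx-KD (kdn, the citrate synthase, -0.25 ± 0.08, and the isocitrate dehydrogenase subunits Idh3a, -0.19 ± 0.06, and Idh3b, -0.23 ± 0.08) and 2 in trained trx-KD (mAcon1, the mitochondrial aconitase, -0.42 ± 0.09, and Pdhb, -0.26 ± 0.07). None of the 12 was called with training in either genotype.

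Of 6 regulators of mitochondrial biogenesis tested, srl (the fly PGC-1) rose with training in control flies (0.30 ± 0.08, edgeR adjusted p = 0.0992) and TFAM, which packages mitochondrial DNA, fell (-0.33 ± 0.09, edgeR adjusted p = 0.0795). None of the 6 was called in the other comparisons. Of 4 electron carriers and exchange proteins tested, porin, the channel of the outer membrane, rose in trained trx-KD flies (0.22 ± 0.07, edgeR adjusted p = 0.0657). Of 5 assembly and cofactor genes tested, Cox17, a copper chaperone of cytochrome c oxidase, fell there (-0.29 ± 0.08, edgeR adjusted p = 0.05). The 13 protein-coding transcripts of the mitochondrial genome had medians of 0.26 in control training (0 called), -0.53 in trx-KD training (1 fell), -0.36 in naïve trx-KD (5 fell) and -1.12 in trained trx-KD (10 fell). mt:CoI, which encodes the catalytic subunit of cytochrome c oxidase, had log2 fold changes of -0.40 ± 0.11 and -0.69 ± 0.08 in naïve and trained trx-KD (edgeR adjusted p = 0.0431 and 0.0039). These transcripts are made in mitochondria, outside the nucleus.

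The cytosolic ribosomal protein genes, another set of short and highly expressed housekeeping genes, were counted in the same fits. Of 77 tested, 10 fell in control training (median -0.15), 25 fell and 2 rose in naïve trx-KD (median -0.22), and 14 fell and 6 rose in trained trx-KD (median -0.06), with 0 called in trx-KD training (median 0.07). In per cent, 12.99%, 32.5% and 18.2% of the ribosomal protein genes fell in the 3 comparisons, against 6.56%, 25.8% and 17.7% of the respiratory chain genes. The difference between the 2 sets was not tested, so the lower levels are not shown to be particular to the respiratory chain.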

How the data were processed

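Nuclear RNA of INTACT-purified MB nuclei was sequenced in 15 libraries. The authors deposited 1 table per library of whole-number read counts per gene, without normalization, and their processing notes name STAR 2.5.3a, HTSeq 0.7.1 and the build dm6. The counting mode and the use of strand are not given in the sources used here. Each table lists 17560 features, 1 of them the transgenic tag, which was left out. Symbols came from the reference names, and coordinates and exon lengths from the BDGP6.54 annotation, matched by gene ID for 17253 features.

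The counts were analysed in R 4.3.3 with edgeR 4.0.16 (filterByExpr, minimum count 10 and minimum total 15, TMM scaling, quasi-likelihood test on the 2 groups compared, all 15 libraries for the interaction), and with DESeq2 1.42.0 as an alternative. Genes were called at an adjusted p under 0.1 and also counted at 0.05. CPM values used TMM over all 15 libraries, log2 CPM for the check of replicates a prior count of 2. The methods were tested on simulated data with known changes. At a log2 change of 0.25, 11 of 67 genes were called in control training and 5 of 72 in trx-KD training. It was 2 of 65 and 6 of 59 for trx-KD against control in naïve and trained flies, and 2 of 67 for the interaction. Changes of this size were thus mostly missed, while 68 of 70 were called at a change of 1 in control training. False calls were 5.74% to 15.4% of calls, the most in naïve trx-KD against control. No sequence is shown.

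Replicate libraries had a chi-square per degree of freedom of at least 7.89 in their counts, so no library was a repeat. Named genes were 13 anchors of the complexes, up to 6 rising and 6 falling genes per fit, the highest and lowest levels, paralog pairs and, in related lists, those past the threshold. The genes and lists were chosen with earlier results of these data known. The alternatives were other scalings, no filter, nuclear protein-coding genes only, 1 fit of all libraries, a replicate block, the stricter threshold and leaving out libraries.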

Additional observations from a re-analysis of the deposited data

Results flagged for a closer look

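Within groups of 4 libraries, 123 sets of values (named genes, sums per complex and mitochondrial share) were examined for a library far from the other 3, and 8 were picked out, where chance alone picks about 1 in 20. In naïve controls the complex IV sum of library 1 was 1333 CPM against 1257 to 1267 CPM in the other 3, and ND-20 in library 4 was 66.9 CPM against 53.1 to 54.8 CPM. In trained controls library 4 was high for ATPsynB (70.3 CPM against 65.6 to 66.3), ND-ASHI (39.7 CPM against 33.8 to 34.7) and UQCR-C2 (174 CPM against 151 to 154), and library 3 was low for UQCR-11 (25.7 CPM against 29.7 to 30.1). In trained trx-KD flies library 3 was low for ND-20 (39.0 CPM against 47.5 to 48.3), and library 2 was high for ND-24 (35.3 CPM against 30.7 to 31.2). No respiratory chain gene moved with training without overlap in opposite directions in the 2 genotypes.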

How the results depend on the processing

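The median log2 fold change of the respiratory chain genes stayed within 1 SD of its library spread (0.09) under every alternative but 1. That fit, made without the 3 libraries of lowest mitochondrial share, was chosen after seeing the data. It moved the median of trained trx-KD against control from -0.01 to -0.12 and its count of calls from 14 to 7. Calls among all genes went from 1284 of 9237 to 543 of 9457. The count of calls in control training (4) was 1 with upper-quartile scaling, 1 with all libraries in 1 fit and 1 at an adjusted p under 0.05. Calls among all genes in these fits were 375 of 9255, 293 of 9749 and 277 of 9255, in the same order. In trained trx-KD against control the count was 6 at 0.05 (721 of all 9237 genes). DESeq2 called 1 respiratory chain gene in trx-KD training and 1 in the interaction, where edgeR called 0 of them. Over all genes DESeq2 called 244 of 9370 and 24 of 9749. Over fits without 1 library the counts ranged from 1 to 10 in control training, 0 to 1 in trx-KD training, 4 to 36 in naïve and 4 to 22 in trained trx-KD against control, and 0 to 7 in the interaction. The medians in those fits ranged from -0.18 to -0.11, -0.03 to 0.07, -0.22 to -0.14, -0.08 to 0.01 and 0.06 to 0.17 in the same order. In this order, all-gene calls ranged from 230 to 711, 4 to 160, 330 to 2558, 495 to 1808 and 0 to 189. With the replicate number as a block, control training gave 2 calls, of which 1 was among the 4. Naïve trx-KD against control gave 38, all 16 of the main calls included. Calls among all genes were 246 of 9255 and 2712 of 9419, against 405 and 1333 without the block. In the naïve fit only naïve control library 4 has the number 4, so the block takes it out of the difference between genotypes. Leaving that library out, with no block, gave 36 calls and 2558 of 9326 among all genes. The block is thus not a separate check there. Deviations of same-numbered libraries correlated at -0.119 to 0.141, so the numbers are not taken to pair the libraries. Of the 28 called results of named genes, none changed sign under any alternative, and over all these fits 336 of 476 kept the call and 140 lost it. The cause of these shifts was not tested.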
